A study of Mus musculus with 6 samples.

Results

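The genes described here encode membrane carriers for amino acids, sugars and monocarboxylates. They were taken from the array annotation by symbol, as every gene whose current name begins with Slc1a, Slc2a, Slc3a, Slc6a, Slc7a, Slc16a, Slc36a or Slc38a and goes on with a number. Of the 8 families, 7 were represented by a probe set of their own: 57 of the 12393 genes tested, with 6 Slc1, 8 Slc2, 2 Slc3, 15 Slc6, 13 Slc7, 7 Slc16 and 6 Slc38 genes. No Slc36 gene was measured, and 6 arrays with 3 samples per group limit the precision of every value.

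The vector group consists of 3 samples of 344SQ with a control vector. The miR-34a group consists of 3 samples of the same line with miR-34a expressed inducibly. 344SQ is a metastatic mouse lung cancer line with high Zeb1, of the kind that the labels call KP. The labels name neither the inducing agent nor the clone, host strain or age. The design text and the miR-34a titles speak of tumours grown in injected mice, and the growth protocol speaks of culture. The labels do not tie replicates to different mice or dishes, and the p-values here thus cover only array-to-array spread, possibly technical.

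Solute carriers set what a cell can take up and release. Slc2 proteins let glucose, fructose and related sugars through the membrane, and some Slc16 proteins, MCT1 among them, move lactate, pyruvate and ketone bodies together with protons. Slc1, Slc6, Slc7 and Slc38 proteins carry amino acids and related small molecules, and many Slc7 proteins work only when bound to an Slc3 heavy chain. Growing tumours are known for high uptake of glucose and glutamine and for exchange of lactate between cells.

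The agent of the experiment is shown first. The mature miR-34a arm, from RefSeq on GRCm38.p6 at chr4:150068473-150068494 on the plus strand, is printed with its seed, bases 2 to 8, in capitals.
mmu-miR-34a-5p: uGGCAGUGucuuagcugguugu
Of the probe sets with 1 name, 0 carried the symbol Mir34a, so the expression of miR-34a itself was not checked on these arrays.

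Of the 57 transporter genes, 2 passed as higher in miR-34a samples and 1 as lower (limma, adjusted p under 0.05 over all genes). The higher genes were Slc7a2, a carrier of arginine, lysine and ornithine, at 2.93-fold, and Slc2a8, an intracellular sugar carrier, at 1.29-fold. The lower gene was Slc16a1, which encodes the lactate and pyruvate carrier MCT1, at 1.52-fold. These 3 genes are 5.26% of the transporters, beside 11.7% called among all genes tested. By direction, 3.51% of the transporters were higher and 1.75% lower, against 6.5% and 5.25% of all genes. The share of called transporters was thus under the background in both directions, and a count of 3 supports no statement about the group as a whole.

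The calls were not stable when 1 array was left out. Without vector 1, 5 transporters were called higher and 1 lower, and without vector 2, 2 and 1. Each of the other 4 omissions, of vector 3 or of any miR-34a array, left 0 transporters called by limma in either direction. The calls over all genes tested numbered 1456 with all arrays, 2133 without vector 1 and 1256 without vector 2. They numbered 631 without vector 3 and 255, 667 and 226 without miR-34a 1, 2 and 3. The counts thus moved for all genes, not only for the transporters. Over all 6 arrays, 9 transporters had an unadjusted p under 0.05 (15.8%, against 28.2% of all genes).

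Most members differed little. The median log2 difference, miR-34a minus vector, was -0.02 over the transporters and 0.02 over all genes. Of the transporters 26 lay above 0 and 31 below, and of all genes 6734 above and 5659 below. The difference was under 0.3 in size for 52 of 57 transporters (91.2%) and for 73.9% of all genes. In 55 of the 57 (96.5%, against 91.4% of all genes), the 95% interval of the difference lay within a 2-fold change either way. The exceptions were Slc7a2 and Slc6a6. In 39 the interval lay within 0.5 log2 units (68.4%, against 63.6% of all genes). At least 2-fold differences were found in 1 transporter, Slc7a2, which is 1.75% of them, against 2.36% of all genes. The transporters were also dimmer than most genes: 36 of 57 (63.2%) lay in the lower 40% of genes by mean level. The files were used without detection calls, so the dim members are not told apart from background.

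**Figure D1:**
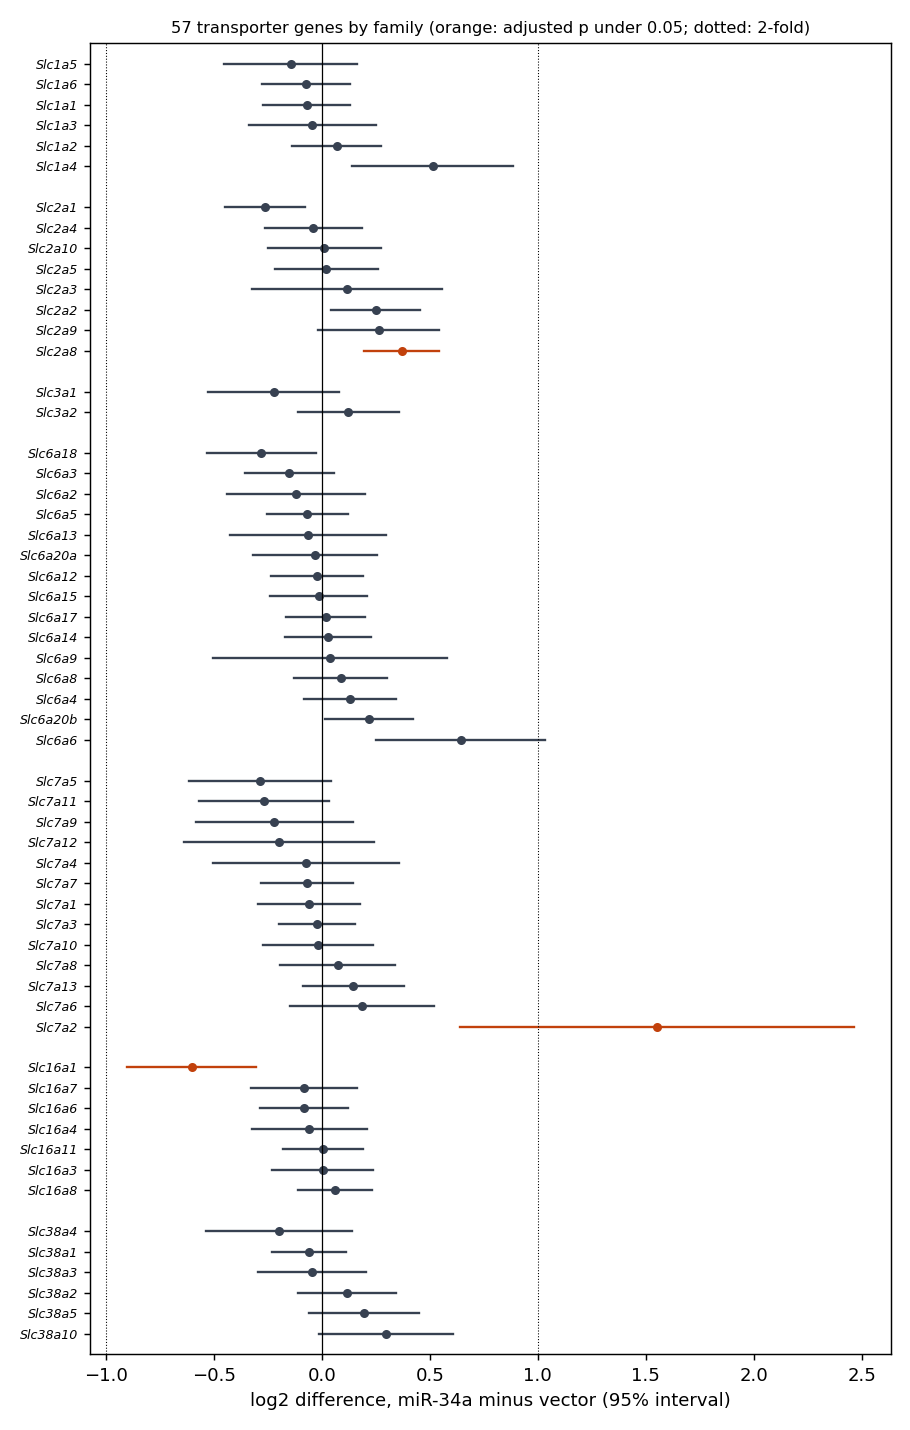
Log2 difference between miR-34a and vector samples (x axis) for each of the 57 transporter genes (y axis), grouped by family; points are the differences and lines the 95% intervals from limma, with 3 arrays per group. Slc7a2, Slc2a8 and Slc16a1, in orange, passed an adjusted p under 0.05, and the interval of all but Slc7a2 and Slc6a6 lies between the dotted lines of a 2-fold change.

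**Figure D2:**
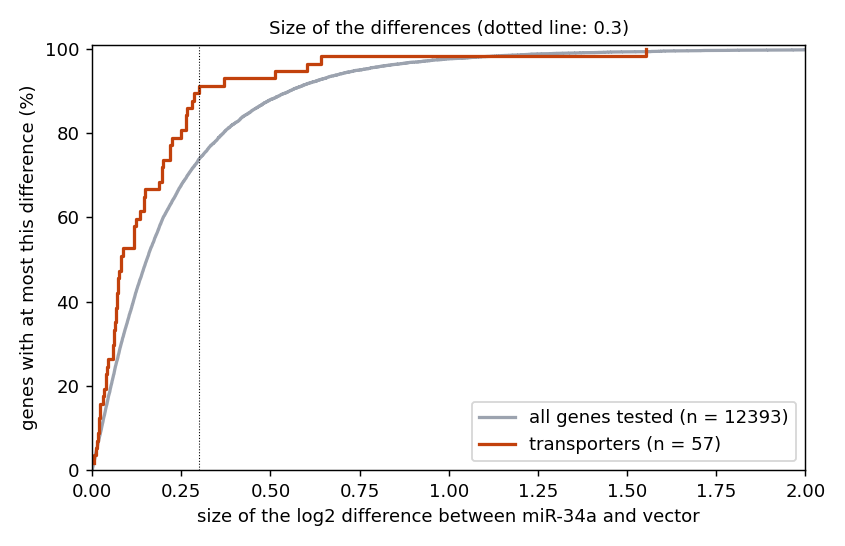
Share of genes (y axis, percent) whose log2 difference is at most the size on the x axis, for the 57 transporters and all 12393 genes tested. At the dotted line of 0.3 the curves stand at 91.2% and 73.9%; the x axis ends at 2, and some of all genes lie beyond it.

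The arrays were unevenly alike, which bears on several members. Vector 1 stood apart: its correlation across genes with the rest of its group was 0.9686 and 0.9722 (Pearson), while the remaining vector pair reached 0.993 and the miR-34a pairs 0.9918 to 0.9955. The list of 8 epithelial genes had a mean log2 level of 11.27 to 11.42 in vector and 11.35 to 11.39 in miR-34a arrays. Single genes of it differed on vector 1. Epcam had 304.8 there, 977 and 1463 in vector 2 and 3 and 951 to 1142 in miR-34a arrays. Krt19 had 19739 there, 11940 and 12667 in vector 2 and 3 and 11682 to 12905 in miR-34a arrays. Within that list the lung markers Nkx2-1 and Sftpc were dim, at the 30.8 and 28.4 percentile of all genes, and the keratin genes Krt8 and Krt18 were among the brightest. Fibroblast markers, 11 of 12 measured, had a mean log2 level of 10.02 in vector 1, against 11.27 and 11.61 in the other vector arrays and 11.26 to 11.77 in miR-34a arrays. Macrophage markers, all 12 measured, stood at 10.04 in vector 1, 10.68 and 10.76 in the other vector arrays and 10.77 to 10.97 in miR-34a arrays. Within the macrophage list Mrc1 and Cd14 ran the other way, being highest on vector 1, and Mrc1 was called lower in miR-34a samples, by -0.99. Neutrophil markers, 6 of 8 measured, stood at 9.36 in vector 1, 8.48 and 8.62 in the others and 8.07 to 8.25 in miR-34a arrays. That order came from S100a8 and S100a9, at -1.41 and -2.98, while Csf3r, Cxcr2, Mpo and Elane differed by 0.06 to 0.11 and the list's median was 0.07. Mast cell markers, all 8 measured, ran from 7.63 to 7.72 in vector and from 8.94 to 9.52 in miR-34a arrays. Of these, Tpsb2, Cma1, Cpa3 and Fcer1a were called higher, by 1.93 to 3.53, and Mcpt4, at 1.14, did not pass. Tpsab1, Kit and Ms4a2 differed by 0.12, 0.03 and 0.02. T and NK cell markers ran from 8.37 to 8.55 in vector and from 8.47 to 8.56 in miR-34a arrays. Endothelial markers ran from 8.57 to 9.26 and from 8.95 to 9.07, and skeletal muscle markers from 7.16 to 7.82 and from 7.22 to 9.03. B and plasma cell markers ran from 6.89 to 8.42 and from 7.29 to 7.66, adipocyte markers from 8.11 to 8.42 and from 8.14 to 8.26, and erythroid markers from 7.30 to 7.59 and from 7.31 to 7.40. No measured marker was at the lowest deposited value, and the part of other cell types in the transporter results was not tested. In bulk samples, fewer cells of a type and less RNA per cell cannot be told apart.

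Among the Slc16 genes, Slc16a1 had the largest difference. Its intensities were 7242, 5388 and 5427 in vector 1 to 3 and 3853, 4054 and 3860 in miR-34a 1 to 3. The groups did not overlap, and vector 1 was the highest array. On the log2(intensity + 16) scale, which holds for every log2 value here, the means were 12.55 ± 0.24 in vector and 11.94 ± 0.041 in miR-34a samples (SD, n = 3). The difference was -0.60 ± 0.13 (SE; limma adjusted p = 0.0282). Without vector 1 it was -0.46 (limma adjusted p = 0.00982). S100a8, S100a9 and Elane were also highest on that array, at 2745, 5270 and 84.99. Of the same neutrophil list, Mpo was lowest there, and Csf3r and Cxcr2 were neither highest nor lowest. The call was kept in 2 of the 6 fits that left out 1 array, those without vector 1 and without vector 2; in the others the limma adjusted p ran from 0.055 to 0.113.

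Slc16a1 was alone in its family. Slc16a3, which encodes MCT4, the main lactate exporter of glycolytic cells, had intensities of 1574, 1597 and 1661 in vector and 1550, 1831 and 1486 in miR-34a samples. The groups overlapped, and the difference of 0.01 had a 95% interval from -0.23 to 0.24. Slc16a7, which encodes the high-affinity carrier MCT2, differed by -0.08 at 145 to 175 in vector and 136 to 166 in miR-34a samples. Slc16a4, Slc16a6 and Slc16a11 differed by -0.06, -0.08 and 0.01. Slc16a8, a carrier known from the retinal pigment epithelium, differed by 0.06 ± 0.07 (SE), with groups that did not overlap, and did not pass. Basigin and embigin, encoded by Bsg and Emb, are membrane partners that bring MCT1 to the cell surface. Their differences were -0.21 ± 0.11 and 0.01 ± 0.09 (SE), and neither passed.

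The start region of Slc16a1 is shown as that of the one lower member, beside Slc2a8, the higher member with an entry in the promoter table. Both are the 250 bases before the annotated start, from RefSeq on GRCm38.p6. Slc16a1 lies on the plus strand at chr3:104638414-104638663 and Slc2a8 on the minus strand at chr2:32982084-32982333.
Slc16a1: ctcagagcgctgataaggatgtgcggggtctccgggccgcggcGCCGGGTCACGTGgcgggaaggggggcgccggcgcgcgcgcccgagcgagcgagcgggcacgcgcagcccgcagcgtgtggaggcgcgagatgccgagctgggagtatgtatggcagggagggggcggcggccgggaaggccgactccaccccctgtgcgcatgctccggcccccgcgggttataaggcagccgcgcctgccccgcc
Slc2a8: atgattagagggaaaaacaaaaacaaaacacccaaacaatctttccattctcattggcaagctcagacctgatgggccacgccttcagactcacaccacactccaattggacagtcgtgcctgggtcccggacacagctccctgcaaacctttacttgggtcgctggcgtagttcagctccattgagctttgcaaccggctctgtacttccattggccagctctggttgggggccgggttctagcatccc
Capitals mark matches, on either strand, to any of TGATGNAA (a C/EBP-ATF response element), CACGTG (an E-box), ACGTG (a hypoxia response core) and TGACNNNGC (an antioxidant response core). In Slc16a1 the capitals hold an E-box that overlaps a match to the antioxidant core on the other strand. Each E-box also holds the hypoxia core on both strands, so these are not separate matches. A further hypoxia core of Slc16a1 lies after the start, outside the printed stretch. The Slc2a8 stretch held no match, which says only that these letters are not in this window.

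The table holds windows of 250 bases before to 50 after a start for 39 of the 57 transporters, 58 windows in all. An E-box was found in 4 of the 58 windows (6.9%) and in 7.15% of all 32851 windows. The hypoxia core was in 29.3% against 19.6%, the antioxidant core in 13.8% against 12.4% and the C/EBP-ATF element in 6.9% against 3.97%. These shares are descriptions, and several genes have more than 1 window.

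Among the sugar carriers, Slc2a8 had the smallest p of all transporters. This gene encodes GLUT8, which is held mainly on membranes inside the cell. Its intensities were 770.8, 759.6 and 746.8 in vector and 956.2, 981.4 and 1019 in miR-34a samples, with little spread in either group and no overlap. The difference was 0.37 ± 0.073 (SE; limma adjusted p = 0.0234), with means of 9.60 ± 0.022 and 9.97 ± 0.046 (SD, n = 3). Leaving out 1 array moved it between 0.35 and 0.39, and the call was kept without vector 1 and without vector 2. The limma adjusted p was 0.0655 to 0.106 in the other fits and 0.0561 with median centring of the arrays.

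Slc2a1, which encodes GLUT1, the basal glucose carrier of most tumour cells, did not pass. Its intensities were 7841, 7739 and 7842 in vector and 6935, 6434 and 6180 in miR-34a samples. All 3 miR-34a arrays lay under all 3 vector arrays, and the vector arrays were nearly equal. The difference was -0.26 ± 0.079 (SE; limma adjusted p = 0.0764), with a 95% interval from -0.45 to -0.08. The other 2 probe sets of Slc2a1 differed by -0.35 each. With median centring the gene's difference was -0.36 and passed (limma adjusted p = 0.039).

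The other sugar carriers did not pass. Slc2a2, the GLUT2 gene of liver and pancreatic islets, was dim, at 104.1, 87.74 and 100.1 in vector and 113.7, 119.4 and 122.7 in miR-34a samples. Its groups did not overlap, with a difference of 0.25 ± 0.087 (SE; limma adjusted p = 0.112). Slc2a3, which encodes the high-affinity neuronal type GLUT3, ran from 444 to 738 in vector and from 549 to 699 in miR-34a samples. Its groups overlapped, and the difference was 0.12. Slc2a4, the insulin-responsive carrier gene of muscle and fat, differed by -0.04, at 290.1 to 356.4 in vector and 303.8 to 309.8 in miR-34a samples, beside the muscle marker range given above. Slc2a5, a fructose carrier gene, differed by 0.02, Slc2a10 by 0.01 and Slc2a9, a urate carrier gene, by 0.26. Without vector 1 Slc2a9 differed by 0.38 and passed (limma adjusted p = 0.0243).

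**Figure D3:**
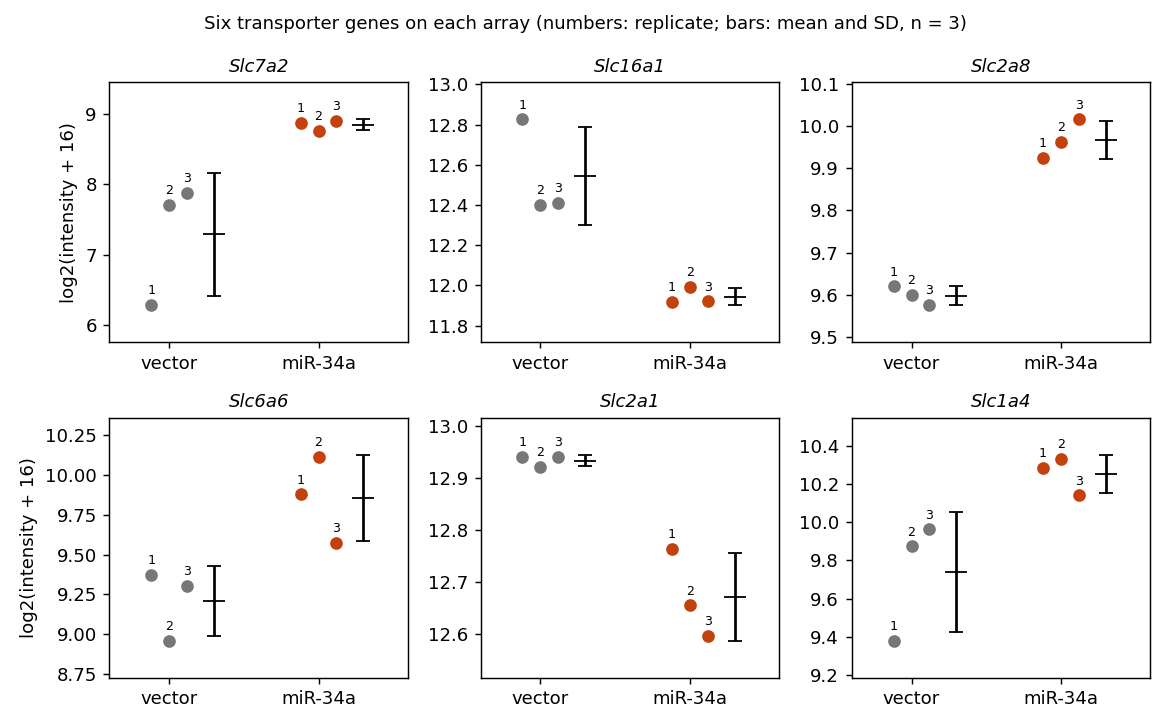
Log2(intensity + 16) on each array (y axis, separate scale per panel) for the 3 called transporter genes and the 3 next by unadjusted p, in vector and miR-34a samples (x axis); numbers give the replicate, bars the mean and SD. The groups do not overlap in any panel, and vector 1 is the lowest array for Slc7a2 and Slc1a4 and the highest for Slc16a1.

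The cationic amino acid carrier gene Slc7a2 had the largest difference of all transporters. The protein, CAT2, takes up arginine in macrophages, liver and muscle, among other cells. Its intensities were 62.09, 193.6 and 219.6 in vector and 454.1, 416.9 and 462.1 in miR-34a samples. The miR-34a arrays lay close together, the groups did not overlap, and vector 1 stood far below the other vector arrays. The log2 means were 7.29 ± 0.88 and 8.85 ± 0.077 (SD, n = 3), and the difference 1.55 ± 0.39 (SE; limma adjusted p = 0.0447). Without vector 1 the difference was 1.05 (limma adjusted p = 0.00129). In the 5 other fits that left out 1 array it was 1.52 to 1.85 and did not pass, with a limma adjusted p of 0.0518 to 0.15.

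The size for Slc7a2 was also set by the pseudocount, since the gene is dim: it was 1.67 at a pseudocount of 1 and 1.28 at 64. The call was lost at a pseudocount of 1 (limma adjusted p = 0.0569), with quantile normalization (0.0632), with median centring (0.0519) and with the trend and robust settings (0.101), where Slc6a6 passed in place of Slc7a2. Its 2 dimmer probe sets differed by 0.75 and -0.02. The mean levels of the fibroblast and macrophage lists were lowest on vector 1 as well, though not those of Fap, Mrc1 and Cd14 within them, and the mean log2 level of 7 genes of mesenchymal state was 8.28 there, 9.37 and 9.44 in the other vector arrays and 9.65 to 9.79 in miR-34a arrays. Among these, Twist1, which encodes a transcription factor of mesenchymal cells, had intensities of 63.82, 172.5 and 174.9 in vector and 425.2, 368.7 and 421.9 in miR-34a samples. It was the only gene of this list that was called. Zeb1, Vim and Snai2 differed by 0.03, 0.09 and -0.01. Zeb2, Cdh2 and Snai1 differed by 0.73, 2.00 and 0.34 and did not pass. The part of such cells in the Slc7a2 result was not tested.

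The other Slc7 and Slc3 genes did not pass. Slc7a5, the light chain gene of the large neutral amino acid carrier LAT1, had intensities of 2138, 1806 and 1741 in vector and 1412, 1865 and 1404 in miR-34a samples. The groups overlapped through miR-34a 2, and the difference was -0.28 with a 95% interval from -0.61 to 0.04. Slc3a2, the heavy chain gene that pairs with Slc7a5 and Slc7a11, ran from 3739 to 4568 in vector and from 4440 to 4809 in miR-34a samples, a difference of 0.12. Slc3a1, the heavy chain gene of the kidney cystine carrier, differed by -0.22, and its light chain gene Slc7a9 by -0.22.

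Slc7a11 encodes xCT, which exchanges cystine for glutamate and supplies glutathione synthesis. Its intensities were 420.9, 306.5 and 312.6 in vector and 275.7, 285.6 and 287.2 in miR-34a samples. All miR-34a arrays lay below the vector arrays, and vector 1 was the highest. The difference was -0.27 (limma adjusted p = 0.228), and -0.12 without vector 1. Its start region is printed because it held 2 matches to the C/EBP-ATF element in its window; 1 window of Slc7a7 also held 2. It covers the 250 bases before the start, on the minus strand of GRCm38.p6 at chr3:50443614-50443863, with both matches in capitals.
Slc7a11: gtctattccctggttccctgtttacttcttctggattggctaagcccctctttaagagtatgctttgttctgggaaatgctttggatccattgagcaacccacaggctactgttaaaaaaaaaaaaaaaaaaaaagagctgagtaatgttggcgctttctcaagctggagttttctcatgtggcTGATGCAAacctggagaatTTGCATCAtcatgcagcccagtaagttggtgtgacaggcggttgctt
The matches face opposite ways. Beside Slc7a11 and Slc7a7, this element was found in a window of Slc1a4.

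Of the other cationic carriers, Slc7a1, the housekeeping arginine carrier CAT1, differed by -0.06 at 121.3 to 142.7 in vector and 112.4 to 136.8 in miR-34a samples. Slc7a3 and Slc7a4 differed by -0.02 and -0.07. Slc7a6 and Slc7a7, light chains that exchange cationic for neutral amino acids, differed by 0.19 and -0.07. Slc7a7, which is known from macrophages, ran from 1370 to 1486 in vector and from 1276 to 1489 in miR-34a samples, groups that overlapped. Slc7a8, Slc7a10, Slc7a12 and Slc7a13 differed by 0.07, -0.02, -0.20 and 0.15.

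Among the glutamate and neutral amino acid exchangers, Slc1a5, the glutamine carrier ASCT2, had intensities of 1483, 1104 and 1091 in vector and 1078, 1156 and 1058 in miR-34a samples. The groups overlapped, and vector 1 was the highest array. The difference was -0.14 with a 95% interval from -0.45 to 0.17. Slc1a4, which encodes ASCT1, an exchanger of alanine, serine and cysteine, had intensities of 650.3, 921.9 and 981.6 in vector and 1232, 1273 and 1112 in miR-34a samples. The groups did not overlap, and vector 1 was the lowest. The difference was 0.51 ± 0.16 (SE; limma adjusted p = 0.0824), and 0.33 without vector 1 (limma adjusted p = 0.0484). The other 2 probe sets of Slc1a4 differed by -0.10 and -0.21, the opposite direction. The glutamate carrier genes Slc1a1, Slc1a2, Slc1a3 and Slc1a6, best known from brain, differed by -0.07, 0.07, -0.04 and -0.07.

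Of the sodium-coupled Slc38 carriers, Slc38a2, which encodes the amino acid carrier SNAT2, was bright, at 5054, 5508 and 6044 in vector and 6314, 6019 and 5647 in miR-34a samples. The groups overlapped, and the difference was 0.12 with a 95% interval from -0.11 to 0.34. Slc38a1 differed by -0.06, Slc38a3 by -0.04, Slc38a4 by -0.20 and Slc38a5 by 0.20. Slc38a10, whose product is a lesser known relative, had intensities of 2571, 3224 and 2283 in vector and 3378, 3134 and 3344 in miR-34a samples. Its difference was 0.30 (limma adjusted p = 0.191), with 1 vector array inside the miR-34a range, and 7 probe sets that ran from -0.14 to 0.61. Without vector 2 it was 0.44 and passed.

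The Slc6 family holds carriers of neurotransmitters, amino acids, taurine and creatine, and 0 of its 15 measured members passed by limma, with 3 at an unadjusted p under 0.05. Slc6a6, the taurine carrier gene, came closest. Its intensities were 645.8, 482.5 and 614.7 in vector and 923.7, 1091 and 745.4 in miR-34a samples. The groups did not overlap, though miR-34a 3 lay near the vector arrays. The difference was 0.64 ± 0.17 (SE; limma adjusted p = 0.0502), just outside the threshold, where Slc7a2 lay just inside it. Without vector 1 it was 0.72 and passed (limma adjusted p = 0.0239). The other 2 probe sets of Slc6a6 differed by 0.01 and -0.21, and the mean over all 3 by 0.15.

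Slc6a8, the creatine carrier gene, had intensities of 1695, 1781 and 1801 in vector and 1686, 1994 and 1942 in miR-34a samples, a difference of 0.09. Its dimmer probe set had 536.1, 933.9 and 792.2 in vector and 1417, 1081 and 1372 in miR-34a samples, a difference of 0.79. On that probe set the groups did not overlap, while on the brighter one they did. Slc6a9, a glycine carrier gene, had the largest vector SD of this family and ran from 791 to 1458 in vector and from 932 to 1335 in miR-34a samples, with a difference of 0.04. Slc6a14, a broad amino acid carrier gene of epithelia, differed by 0.03. The dim pair Slc6a18 and Slc6a20b differed by -0.28 and 0.22 with groups that did not overlap, and did not pass. The remaining Slc6 genes, among them the monoamine carriers Slc6a2, Slc6a3 and Slc6a4, differed by -0.15 to 0.13.

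Groups that did not overlap were found in 11 transporters, 7 higher and 4 lower in miR-34a samples. That is 19.3% of the 57, where 34.9% of all genes tested had such groups, 20.8% higher and 14% lower.

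Several genes had more than 1 probe set, and these disagreed in places. Of 17 such transporters, 8 had probe sets of opposite sign, among them Slc7a2, Slc6a6, Slc1a4 and Slc38a10. In a fit of each named probe set on its own, chosen after the data were seen, 8 of the transporters' 88 probe sets passed as higher and 2 as lower (limma), where 6.47% and 7.18% of all named probe sets did. The 8 were 3 of Slc38a10, 2 of Slc7a2 and 1 each of Slc2a8, Slc6a6 and Slc6a8, and the 2 were of Slc16a1 and Slc2a1. For Slc38a10, Slc6a8 and Slc2a1 the probe sets that passed were not the brightest ones.

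**Figure D4:**
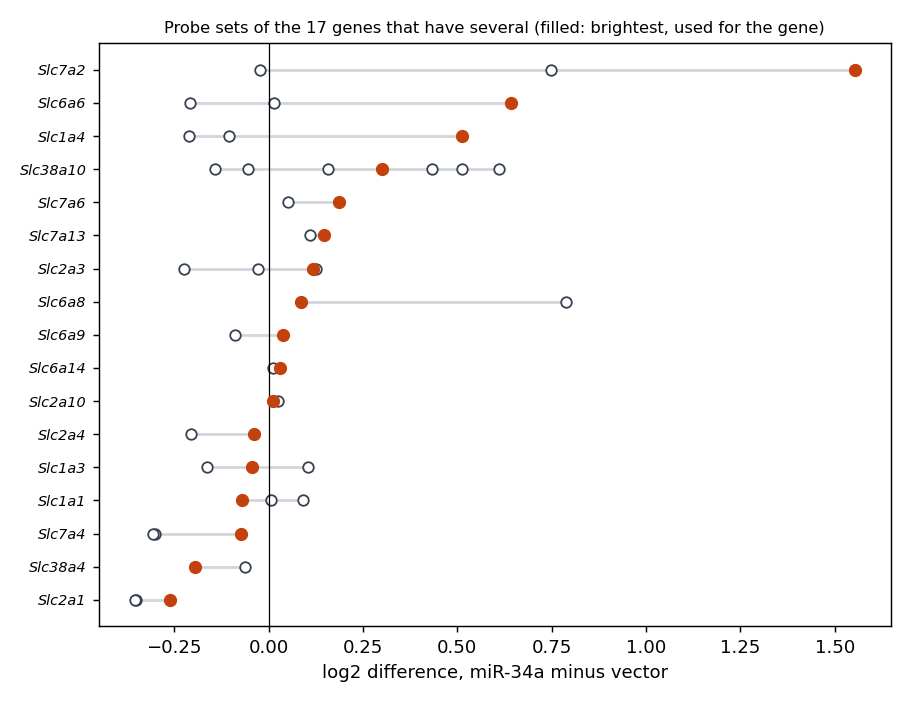
Log2 difference between miR-34a and vector samples (x axis) of every probe set of the 17 transporter genes that have several (y axis); the filled point is the brightest probe set, which stands for the gene. The open points of Slc7a2, Slc6a6 and Slc1a4 lie to the left of the filled ones, at 0.75 or less, and that of Slc6a8 to the right, at 0.79.

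**Figure D5:**
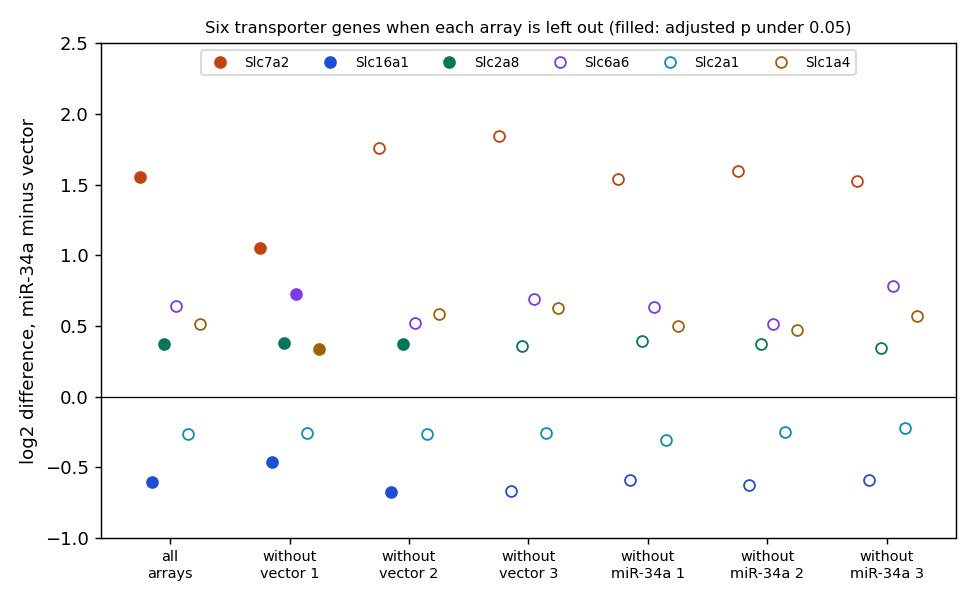
Log2 difference (y axis) of the 3 called transporter genes and the 3 next by unadjusted p, over all arrays and with each array left out (x axis); filled points passed an adjusted p under 0.05. Each gene keeps its sign in all 7 fits, and without vector 1 Slc7a2 drops from 1.55 to 1.05 while Slc6a6 and Slc1a4 pass.

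The genes around nutrient uptake were described from lists of the amino acid deprivation response, mTORC1 nutrient sensing, glutamine and aspartate metabolism, control of sugar uptake and lactate, and partners of the carriers. Of 80 measured genes of these lists, 8 passed as higher and 2 as lower (limma), which is 12.5%, against 11.7% of all genes. Their median difference was 0.09. Without vector 1 the counts were 15 and 4 and without vector 2 they were 8 and 4. Without vector 3 they were 4 and 2, and without miR-34a 1 they were 2 and 0. Without miR-34a 2 they were 4 and 3, and without miR-34a 3 they were 1 and 0. The calls over all genes in these fits are given above.

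In the amino acid deprivation list, 3 of 22 measured genes passed as higher and 1 as lower (18.2%, against 11.7% of all genes). Passed or not, 16 differences lay above 0 and 6 below, where all genes had 6734 above and 5659 below. The largest difference above 0 was that of Atf3, a stress-induced transcription factor gene, at 0.99 with groups that did not overlap, and it did not pass (limma adjusted p = 0.059). Atf4 itself, the transcription factor gene of this response, had intensities of 3786, 4639 and 5141 in vector and 5203, 5266 and 4670 in miR-34a samples. The groups overlapped, with a difference of 0.17 that did not pass. Aldh18a1, which encodes an enzyme of proline synthesis, went from 1695, 2280 and 1962 to 3211, 3361 and 3108, a rise of 0.71 ± 0.12 (SE). Phgdh, the first enzyme of serine synthesis, rose by 0.67 and Vldlr, a lipoprotein receptor gene, by 0.78, while Ddit4, an inhibitor of mTORC1, fell by 1.14. Asns and Trib3 differed by 0.13 and 0.87 and did not pass.

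In the mTORC1 list, 2 of 21 measured genes passed, both as higher (9.52%, against 11.7% of all genes in either direction). They were Tsc2, a brake on mTORC1, at 0.71 and Flcn, a regulator of the Rag GTPases, at 0.64. Passed or not, 15 differences of this list lay above 0 and 6 below, where all genes had 6734 above and 5659 below. In the sugar and lactate list, 2 of 18 passed as higher and 1 as lower (16.7%), and 12 differences lay above 0 and 6 below. Txnip, which restrains glucose uptake through GLUT1, had intensities of 1847, 1955 and 2051 in vector and 3239, 2709 and 4466 in miR-34a samples. The groups did not overlap, and the rise was 0.80 ± 0.18 (SE; limma adjusted p = 0.0315). Pdk2, a pyruvate dehydrogenase kinase gene, rose by 0.53, and Hk2, a hexokinase gene, fell by 0.76. Ldha, the lactate dehydrogenase gene, ran from 17875 to 19166 in vector and from 15339 to 16491 in miR-34a samples. Its groups did not overlap, and the difference of -0.23 did not pass. In the glutamine and aspartate list 0 of 10 passed by limma, though Oat and Gss, at -0.29 and 0.48, had an unadjusted p under 0.05. In the partner list 1 of 10 passed by limma, the scaffold gene Slc9a3r1 at 0.41. Nedd4l, Sgk1 and Nedd4, at 1.22, 1.18 and -0.34, had an unadjusted p under 0.05 and did not pass. Their groups did not overlap.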

How the data were processed

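Affymetrix mouse arrays were hybridised with biotin-labelled RNA of 6 samples, per the labels. The design text names the 430 2.0 array, but the table holds fewer probe sets. The values are linear probe set intensities as the authors deposited them, for 22690 probe sets; how they were summarised and scaled is not given in the sources used here. Array medians were 466.7 to 484.2. Groups and replicate numbers are from the sample titles. Symbols are from the platform annotation, updated by Entrez identifier with the RefSeq table of GRCm38.p6 (20364 of 20393 single-symbol probe sets matched). Each gene took its probe set of highest mean log2(intensity + 16), which understates changes of dim genes, and all 12393 genes were fitted in R 4.3.3 by limma 3.58.1 (lmFit, then eBayes; two-sided), with Benjamini-Hochberg adjustment at 0.05. Figures used matplotlib 3.10.9.

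The members, lists, tests and alternatives were chosen with earlier results of these data known. Named genes were every called transporter, the 5 of smallest p not called in each direction, and called genes of the other lists. Added to these were 25 chosen carriers, of which 22 were measured. Further members are given by their difference or range. Slc6a8, Slc16a8, Oat, Gss, Atf3, Nedd4l, Sgk1, Nedd4, individual cell type markers and the Slc7a11 promoter were singled out after their values were seen. In data simulated for this comparison, with 200 of 12393 genes changed, 82.5% of changes of 1 log2 unit and 97.5% of changes of 2 were recovered. Other genes called numbered 8 and 13. The simulated arrays were drawn independently, with none set apart as vector 1 is, and smaller changes were not simulated.

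The alternatives tried were 2 other scalings (quantile, median centring), a level filter that drops the lowest 40% of genes, a pseudocount of 1 or 64, averaging a gene's probe sets, eBayes with trend and robust settings, arrayWeights, a replicate block, and omission of each array.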

Additional observations from a re-analysis of the deposited data

How the results depend on the processing

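Over all arrays, 2 transporters were called higher and 1 lower. Across the 6 fits that omitted 1 array, these counts ranged over 0 to 5 and 0 to 1. Those of the nutrient-response genes, 8 and 2, ranged over 1 to 15 and 0 to 4. Calls over all genes, 1456 with all arrays, ranged from 226 to 2133 in the same fits. Higher transporters numbered 1 with quantile normalization or a pseudocount of 1, 0 with median centring and 7 with array weights, and lower ones 2 with median centring, with the robust trend and with array weights. The transporters' median, -0.02, was -0.12 with median centring and -0.05 to 0.03 across the fits that omitted 1 array. The nutrient-response genes numbered 18 higher with array weights. Array weights raised the calls over all genes as well, from 1456 to 3238, of which 1919 were higher and 1319 lower. Lower ones numbered 4 with quantile normalization, without the lower genes by level or at a pseudocount of 64, 5 with median centring or the robust trend and 7 with array weights. Median centring also turned the split of all calls from 805 higher and 651 lower to 451 and 992 and moved the median of all genes from 0.02 to -0.07; quantile normalization gave 608 and 804. Leaving out members whose name ends in os changed nothing, since none was measured. The cause of these shifts was not tested. No named transporter that was called under any of these settings changed sign between them. With the replicate block 0 transporters were called, and 3 nutrient-response genes higher and 2 lower. Deviations of same-numbered samples from their group means correlated at -0.168, -0.0935 and -0.0812. With 3 arrays per group these values cannot decide whether same-numbered samples were paired, and the labels do not say. Without detection calls, the 36 dim transporters limit what can be seen.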
